A study of Mus musculus with 14 samples.

Results

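Nnat, the gene for the small membrane proteolipid neuronatin, and 39 other imprinted genes were followed in intervertebral discs from 2 mouse models of type 2 diabetes. The 40 genes were taken by gene symbol from the 55487 genes of the gene count table, and all 40 symbols were found. Of these, 34 passed the low-count filter, which asked for more than 1 CPM (counts scaled to library size) in at least 3 libraries. The other 6, Dio3, Phlda2, Magel2, Peg12, Mkrn3 and Ascl2, were too low to test and are given by their counts.

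The question was how the disc transcriptome of each diabetic model differs from that of its own control. Each of the 14 libraries came from 1 male mouse, whose tail discs were pooled, and the 2 models formed separate cohorts. Cohort 1 held 3 db/db mice, which carry a point mutation in both copies of the leptin receptor gene Lepr, and 3 heterozygous db/+ controls, acquired at 12 weeks of age. Cohort 2 held 4 C57BL/6J mice given streptozotocin and a high-fat diet (STZ-HFD) and 4 C57BL/6J controls on standard chow with vehicle (Con+Veh). These mice entered at 12 weeks of age, and the STZ-HFD mice ate the diet for 4 to 6 weeks, received 1 dose of 100 mg/kg streptozotocin, a toxin of the insulin-producing beta cell, and then ate the diet for 12 more weeks. Cohort, age at harvest and schedule therefore differ between the models, and their part in any difference between the models cannot be told apart from that of the model itself. The db allele disables leptin signalling throughout the body, and streptozotocin injures beta cells by a chemical route. All libraries carry the same batch label.

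An imprinted gene is transcribed mainly from the copy inherited from 1 parent, under DNA methylation marks laid down in the egg or the sperm. Such genes lie in clusters, each usually governed by a methylated control region and often by a long noncoding RNA, and many of them act in fetal growth, placenta, fat and brain. Nnat is transcribed from the paternal copy and lies inside an intron of Blcap, whose imprinting is restricted to certain tissues. The libraries carry no allele information, so which parental copy was transcribed was not measured.

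In the mouse assembly GRCm38, Nnat (ENSMUSG00000067786) spans chr2:157560078-157562522 on the forward strand. Blcap (ENSMUSG00000067787), a gene named for its reduced level in bladder cancer, spans chr2:157556362-157571274 on the reverse strand and encloses it. No exon base of Nnat was shared with Blcap, and 87 of its 1829 exon bases were shared with another annotated gene. The map of both genes shows this arrangement. Whether reads were counted by strand is not given in the sources used here, so intronic Blcap RNA read across Nnat exons could not be told apart from Nnat RNA.

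**Figure D1:**
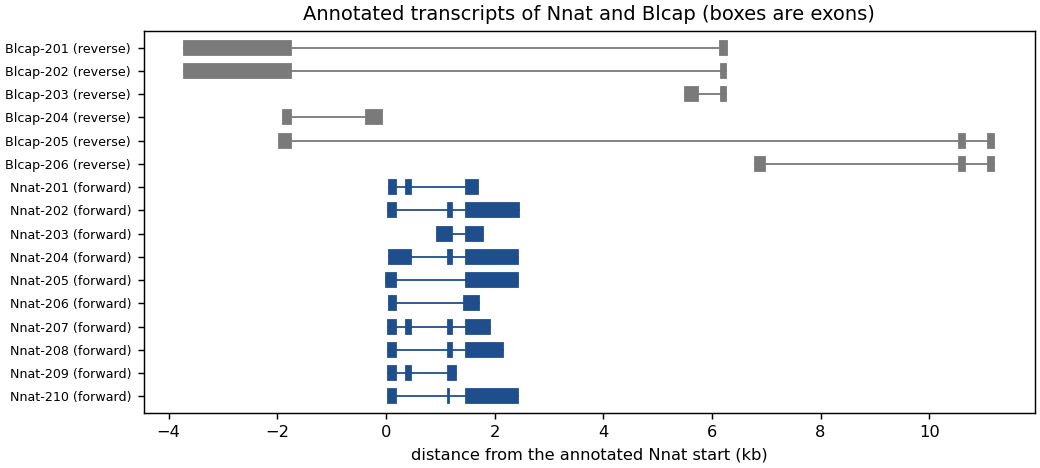
Annotated transcripts of Nnat (blue, forward strand) and Blcap (grey, reverse strand), with boxes for exons and lines for introns, plotted by distance in kb from the annotated Nnat start. The Nnat exons lie between the Blcap exons and overlap none of them.

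The starts of 5 genes that the results turn on are shown as RefSeq promoters on GRCm38.p6, each 250 bases before to 50 bases after the annotated start, read 5′ to 3′ on the gene's own strand. CpG dinucleotides, the sites of the methylation that marks an imprinted copy, are in capitals. Nnat (chr2:157559828-157560127, forward) and Blcap (chr2:157566312-157566611, reverse) are shown as the gene pair that rose in db/db, Ndn (chr7:62348027-62348326, forward) as the gene whose response differed between the models, and Peg3 (chr7:6730370-6730669, reverse) and Zim1 (chr7:6696383-6696682, reverse) as 2 genes of 1 domain that shared their low controls and were not called by limma with all libraries.
Nnat: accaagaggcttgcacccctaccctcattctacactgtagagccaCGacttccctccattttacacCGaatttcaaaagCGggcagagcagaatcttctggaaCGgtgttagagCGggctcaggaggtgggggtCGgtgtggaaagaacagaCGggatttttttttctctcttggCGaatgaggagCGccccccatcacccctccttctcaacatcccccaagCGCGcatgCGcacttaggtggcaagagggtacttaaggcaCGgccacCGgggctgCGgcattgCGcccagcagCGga
Blcap: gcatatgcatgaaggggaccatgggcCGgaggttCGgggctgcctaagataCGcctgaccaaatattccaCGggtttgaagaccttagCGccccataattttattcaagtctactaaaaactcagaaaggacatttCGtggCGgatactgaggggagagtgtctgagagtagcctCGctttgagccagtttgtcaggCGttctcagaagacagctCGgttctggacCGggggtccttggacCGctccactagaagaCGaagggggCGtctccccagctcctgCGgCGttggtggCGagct
Ndn: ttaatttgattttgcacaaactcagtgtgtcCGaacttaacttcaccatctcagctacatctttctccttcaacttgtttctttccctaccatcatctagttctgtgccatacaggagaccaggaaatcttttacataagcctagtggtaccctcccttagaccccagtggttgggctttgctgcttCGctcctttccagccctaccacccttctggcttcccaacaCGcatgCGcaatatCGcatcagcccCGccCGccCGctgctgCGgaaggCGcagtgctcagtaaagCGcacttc
Peg3: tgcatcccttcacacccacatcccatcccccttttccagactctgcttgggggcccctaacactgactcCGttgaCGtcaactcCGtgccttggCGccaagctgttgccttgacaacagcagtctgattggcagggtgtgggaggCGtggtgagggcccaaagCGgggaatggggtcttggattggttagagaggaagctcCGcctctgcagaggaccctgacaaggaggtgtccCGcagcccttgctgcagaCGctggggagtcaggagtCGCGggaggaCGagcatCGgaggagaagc
Zim1: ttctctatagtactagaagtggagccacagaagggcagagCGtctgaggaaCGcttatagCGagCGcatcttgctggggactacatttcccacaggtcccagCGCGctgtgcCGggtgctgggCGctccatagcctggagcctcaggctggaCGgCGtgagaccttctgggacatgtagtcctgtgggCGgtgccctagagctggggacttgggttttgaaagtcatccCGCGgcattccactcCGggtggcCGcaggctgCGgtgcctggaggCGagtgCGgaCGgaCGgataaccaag

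The Nnat promoter held 17 CpG, as did that of Blcap, and those of Ndn, Peg3 and Zim1 held 11, 13 and 20. Over all 32851 mouse promoters of this length the median was 7. The 32 imprinted genes with a RefSeq promoter in the table had 47 promoters, of which 36 were above that median, and the median over the 47 was 14. The promoter of Rian, a long noncoding RNA, held 0.

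Matches to 3 patterns were searched on both strands. TATAAA was present in none of these 5 promoters and in 13.6% of all promoters. CCAAT occurred 2 times in the Peg3 promoter, in none of the other 4, and in 37.4% of all promoters. GGGCGG occurred 2 times in the Ndn promoter, 1 time in that of Zim1, and in 35.7% of all promoters. The RefSeq starts of Peg3 and Usp29 lie 164 bases apart on opposite strands, so their promoter windows share 263 bases, and the RefSeq starts of Nnat and Blcap lie 6283 bases apart. The RefSeq start of Ndn lies 1708 bases inside the gene as annotated for counting.

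The libraries held 16076908 to 58943169 counts, so 3 counts, taken here as the smallest amount that can be told from none, stood for 0.0431 to 0.163 CPM. Ribosomal RNA genes took 28.1% to 39.7% of counts in cohort 1 and 44.4% to 60.2% in cohort 2. STZ-HFD 1 stood apart with 42626 genes having at least 1 count, against 25194 to 29924 in the other 13 libraries. The weights that the fit gave to libraries ran from 0.275 for Con+Veh 1 to 3.05 for Con+Veh 3. Disc markers, among them Acan and Col2a1, were detected in every group, with summed levels of 28885 to 42772 CPM in db/+, 14656 to 29941 in db/db, 3230 to 5998 in Con+Veh and 1636 to 3339 in STZ-HFD. Of the 10, limma called 5 lower in STZ-HFD (Acan, Col2a1, Sox9, Comp and Fmod), DESeq2 4 and edgeR 0, and 2 of 5 bone markers (Ibsp and Alpl) and 2 of 5 macrophage markers (Cd68 and Lyz2) were also called lower there by limma and none by edgeR or DESeq2. In db/db, limma and DESeq2 called 1 of 5 endothelial markers higher (Tek, log2 fold change 1.31, limma adjusted p = 0.0115) and edgeR 0. The summed endothelial level was 136 to 194 CPM in db/+ and 228 to 252 in db/db, and that of the bone markers, 0 of 5 called there, was 1137 to 1756 CPM in db/+ and 645 to 876 in db/db, so neither sum overlapped between the groups. Of the macrophage markers in db/db, limma and edgeR called 0 and DESeq2 1. The part of these markers in the values below, those of Nnat, Blcap and Ndn in db/db included, was not tested. In such bulk samples, fewer cells of a type and less RNA per cell cannot be told apart.

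Nnat was higher in both models than in the respective control. Its level in the db/+ discs was 1.95, 1.76 and 1.65 CPM (95 to 106 counts), and in the db/db discs 7.19, 6.00 and 7.43 CPM (457, 418 and 473 counts). Every db/db library lay above every db/+ library, and the 3 libraries of each group lay close together. In cohort 2 the Con+Veh discs held 0.679, 2.45, 3.85 and 2.12 CPM (25, 118, 82 and 39 counts) and the STZ-HFD discs 4.19, 8.25, 6.06 and 14.2 CPM (102, 240, 195 and 477 counts). These groups did not overlap either, but both were more spread, and the lowest STZ-HFD library was just above the highest Con+Veh library.

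The group means were 1.78 ± 0.15 CPM in db/+ and 6.87 ± 0.77 CPM in db/db (SD, n = 3), and 2.28 ± 1.30 CPM in Con+Veh and 8.17 ± 4.34 CPM in STZ-HFD (SD, n = 4). The log2 fold change was 1.94 ± 0.41 (SE) in db/db, a 3.83-fold higher level (limma adjusted p = 0.0285), and 1.65 ± 0.40 in STZ-HFD, a 3.14-fold higher level (limma adjusted p = 0.0314). The direct test of the models against each other gave a difference of -0.29 ± 0.57 (STZ-HFD minus db/db, limma adjusted p = 0.848), an error too wide to show that the responses were alike. By the quasi-likelihood test of edgeR neither response passed (adjusted p = 0.202 and 0.112). Over 29 alternatives the log2 fold change in db/db ran from 1.06 to 3.05 and its adjusted p from 0.0049 to 0.763. In STZ-HFD it ran from 1.15 to 2.24, with adjusted p from 0.00428 to 0.632. The db/db call was lost when any 1 of the 6 libraries of cohort 1 was left out (limma adjusted p from 0.054 to 0.1), while the log2 fold change stayed at 1.88 to 2.03. It was also lost without library weights (1.94, limma adjusted p = 0.123). The STZ-HFD call was lost without Con+Veh 3 (2.24, limma adjusted p = 0.191), Con+Veh 4 (1.64, 0.155), STZ-HFD 3 (1.88, 0.102) or STZ-HFD 4 (1.23, 0.131). It was also lost without library weights, with filterByExpr, with no low-count filter and with that model fitted alone. Leaving out both libraries whose names end in RIP lost it too. The same held on transcript totals, with either marker score and with genes detected as a covariate. In all, the db/db call was lost in 10 of the 29 alternatives and the STZ-HFD call in 14.

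Nnat is also known to be expressed in adipocytes, and part of the adipocyte marker list moved with it in db/db. Of the 9 markers, 5 (Adipoq, Plin1, Fabp4, Lpl and Retn) were called higher in db/db by limma and 0 in STZ-HFD, where 4 had an unadjusted p under 0.05. The edgeR test made no call among the 9 in either contrast (0 of 9), and DESeq2 called 5 and 0. The other 4 were not called in db/db, with log2 fold changes of 2.07 for Lep (limma adjusted p = 0.156), 1.33 for Cidec (limma adjusted p = 0.101), -0.66 for Car3 (limma adjusted p = 0.492) and -0.60 for Cfd (limma adjusted p = 0.3501). Adipoq, the adipocyte hormone adiponectin, was at 4.66 to 7.47 CPM in db/+ and 17.9 to 20.7 in db/db, and at 12.4 to 40.4 in Con+Veh and 18.5 to 43.9 in STZ-HFD. The summed level of the 9 markers was 1056 to 4168 CPM in db/+, 1458 to 1842 in db/db, 2697 to 5068 in Con+Veh and 4352 to 8280 in STZ-HFD, and none of the 9 was at 0 throughout a group. Car3 was the largest part of each sum, at 519 to 3785 CPM in db/+ and 792 to 1002 CPM in db/db. With an adipocyte marker score in the fit, the Nnat log2 fold change was 1.06 in db/db (limma adjusted p = 0.763) and 1.15 in STZ-HFD (limma adjusted p = 0.632). In that fit no gene at all was called in db/db. In STZ-HFD it called 2 genes higher and 2 lower, against 220 and 221 without the score. The part of adipocyte RNA in the Nnat difference was not tested beyond these values.

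Of 9 skeletal muscle markers, limma called 3 higher in STZ-HFD (Acta1, Myh1 and Pvalb) and 1 lower in db/db (Myh1). Of these 9 markers, edgeR called 0 in either contrast and DESeq2 1 in each. Their summed level was 4003 to 7753 CPM in db/+, 2491 to 4086 in db/db, 6713 to 8716 in Con+Veh and 6620 to 18496 in STZ-HFD, where STZ-HFD 1 lay below the other 3. No marker was at 0 throughout a group. With a skeletal muscle score in the fit, the Nnat log2 fold change was 2.09 in db/db (limma adjusted p = 0.0617) and 1.40 in STZ-HFD (limma adjusted p = 0.226). The part of muscle RNA in these values was not tested further.

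Estimated transcript counts placed most Nnat RNA in the coding transcript Nnat-202. Its share was 87.0% to 100% in db/+, 88.1% to 100% in db/db and 65.6% to 100% in Con+Veh. In STZ-HFD it ran from 0 to 99.3%, because STZ-HFD 1 had all of its estimated Nnat counts in Nnat-204, a transcript that keeps an intron. Nnat-204 took at most 10.99% in cohort 1 and 32.4% in Con+Veh.

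Blcap rose with its inner neighbour in db/db. The db/+ discs held 13.6, 14.3 and 10.8 CPM and the db/db discs 25.6, 33.3 and 23.8 CPM, without overlap. The log2 fold change was 1.08 ± 0.25, a 2.11-fold higher level (limma adjusted p = 0.0366). The call was lost when any 1 of these 6 libraries was left out, with log2 fold changes of 0.93 to 1.18 and limma adjusted p from 0.0644 to 0.112. It was also lost by edgeR, by DESeq2, without library weights and with either marker score. In cohort 2, Con+Veh held 7.36, 16.3, 13.2 and 14.7 CPM and STZ-HFD 13.1, 19.3, 26.99 and 15.5 CPM. These groups overlapped, and the log2 fold change of 0.53 ± 0.24 did not pass the test (limma adjusted p = 0.240). The difference between the models did not pass either (-0.54 ± 0.34, limma adjusted p = 0.448).

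Ndn (ENSMUSG00000033585, chr7:62346569-62350262, forward strand, a single-exon gene), which encodes necdin, a growth suppressor of the MAGE family and a gene of the Prader-Willi domain, was the 1 imprinted gene of the 34 called for a different response in the models. The db/+ discs held 24.3, 21.3 and 27.4 CPM and the db/db discs 50.8, 45.1 and 58.8 CPM, without overlap. The log2 fold change was 1.10 ± 0.22, a 2.14-fold higher level (limma adjusted p = 0.0248). The Con+Veh discs held 8.29, 24.8, 21.2 and 17.9 CPM and the STZ-HFD discs 10.2, 10.4, 12.5 and 12.4 CPM. Here 3 of the 4 control libraries lay above all STZ-HFD libraries and Con+Veh 1 lay below them, and the log2 fold change of -0.71 ± 0.22 did not pass (limma adjusted p = 0.0804). The difference between the responses was -1.81 ± 0.31 (limma adjusted p = 0.0176). It was no longer called without db/+ 2 (limma adjusted p = 0.0536) or without Con+Veh 3 (limma adjusted p = 0.118), nor by edgeR's test (adjusted p = 0.146), without library weights (adjusted p = 0.1997) or with the adipocyte or muscle score as a covariate (adjusted p = 0.0847 and 0.165), with a difference between -1.89 and -1.48 over 28 alternatives. The db/db call of Ndn was also lost by edgeR (adjusted p = 0.238), by DESeq2 (adjusted p = 0.0522), without library weights (adjusted p = 0.184), with either score (adjusted p = 0.678 and 0.138), and with the GC trend removed, where the log2 fold change was 0.90, under the minimum of 1. It was lost without any of db/+ 1, db/+ 2 and the 3 db/db libraries (limma adjusted p from 0.0522 to 0.104), with log2 fold changes of 0.99 to 1.19. Without Con+Veh 1, the STZ-HFD log2 fold change was -0.79, with a limma adjusted p of 0.0276.

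Rian (ENSMUSG00000097451, chr12:109603940-109661716, forward strand), a maternally transcribed long noncoding RNA that hosts small nucleolar RNAs in the Dlk1-Dio3 domain, was the imprinted gene called lower in STZ-HFD. The Con+Veh discs held 12.3, 9.56, 30.5 and 26.2 CPM and the STZ-HFD discs 16.9, 5.12, 9.19 and 14.1 CPM. The groups overlapped, with Con+Veh 3 and 4 far above Con+Veh 1 and 2. The log2 fold change was -1.26 ± 0.33, a 2.39-fold lower level (limma adjusted p = 0.0416), and it was -0.81 without Con+Veh 3 (limma adjusted p = 0.582) and -1.06 without Con+Veh 4 (limma adjusted p = 0.267). The call was also lost without any 1 of STZ-HFD 2, 3 and 4 (limma adjusted p from 0.0696 to 0.309) or of the 3 db/db libraries (from 0.0508 to 0.0527), and by edgeR, by DESeq2, without library weights, with either other filter, with that model fitted alone, with ribosomal RNA genes removed and with any of the 3 covariates. The same 2 controls also had the highest summed level of Schwann cell and nerve markers in their group, 2643 and 2662 CPM against 465 and 473 CPM, and of endothelial markers, 856 and 846 CPM against 177 and 218 CPM. Most of that endothelial difference was in 1 gene, Kdr, at 649 and 582 CPM against 12.1 and 25.4 CPM. In STZ-HFD the nerve sums were 2152, 2050, 879 and 546 CPM and the endothelial sums 176, 357, 354 and 444 CPM. Con+Veh 3 and 4 were also the highest of their group for the summed disc, erythroid, bone and macrophage markers. This did not hold for the adipocyte or skeletal muscle markers. The shared pattern therefore singles out no cell type, and the part of any of them in the Rian value was not tested. In cohort 1, db/+ held 10.1, 12.5 and 16.4 CPM and db/db 15.5, 14.8 and 12.5 CPM, an overlap, with a log2 fold change of 0.17 ± 0.34 (limma adjusted p = 0.819).

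**Figure D2:**
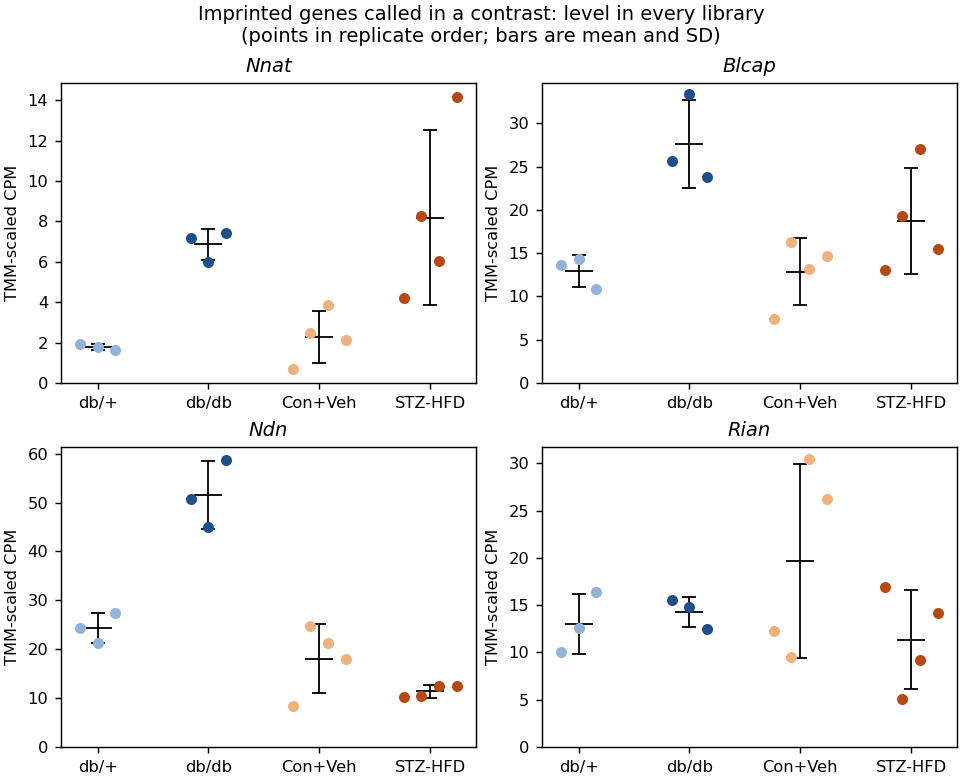
Level of Nnat, Blcap, Ndn and Rian in each library (points, TMM-scaled CPM, in replicate order within each group), with the group mean and SD as bars. Nnat separates from the controls in both models, Blcap and Ndn in db/db, and the Rian groups overlap.

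Counted over the 34 tested genes, 3 were called higher in db/db (Nnat, Ndn and Blcap) and 0 lower, at an adjusted p under 0.05 and a log2 fold change of at least 1 in size. Over all 16915 genes tested, 1.23% were called higher and 0.432% lower in this contrast. In STZ-HFD, 1 was called higher (Nnat) and 1 lower (Rian), against 1.30% and 1.31% of all genes. For the difference between the models, 0 were higher and 1 was lower (Ndn), against 0.952% and 0.816% of all genes. The edgeR test called 0 of the 34 in each of the 3 contrasts, with 9, 6 and 6 at an unadjusted p under 0.05. Over all genes edgeR called 0%, 0.171% and 0.0296%, and 11.2%, 12.6% and 11.8% had an unadjusted p under 0.05. DESeq2 called 2 in db/db (Nnat and Zim1), 1 in STZ-HFD (Nnat) and 1 for the difference (Ndn), against 1.25%, 1.64% and 1.48% of all genes in either direction. With the replicate number as a block, limma called 6, 2 and 1 of the 34, against 5.71%, 3.54% and 2.08% of all genes.

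At an unadjusted limma p under 0.05, 9 of the 34 stood out in db/db, where 21.1% of all genes did so. In STZ-HFD 9 of 34 did, against 17.9% of all genes, and 9 of 34 for the difference, against 17.3%. No test of these shares against each other was made. The median log2 fold change of the 34 was 0.20 in db/db and -0.19 in STZ-HFD, beside -0.04 over all genes in both.

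In db/db, 7 of the 34 (Nnat, Dlk1, Mest, Asb4, Slc22a18, Ndn and Blcap) had every library above every db/+ library, and 14.1% of all genes did so. Trappc9, a gene of membrane traffic, was the 1 with every library below, against 11.7% of all genes. In STZ-HFD, 2 genes (Nnat and Asb4) lay wholly above Con+Veh, against 1.97% of all genes, and Grb10, an adaptor that restrains insulin receptor signalling, lay wholly below, against 2.77%.

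**Figure D3:**
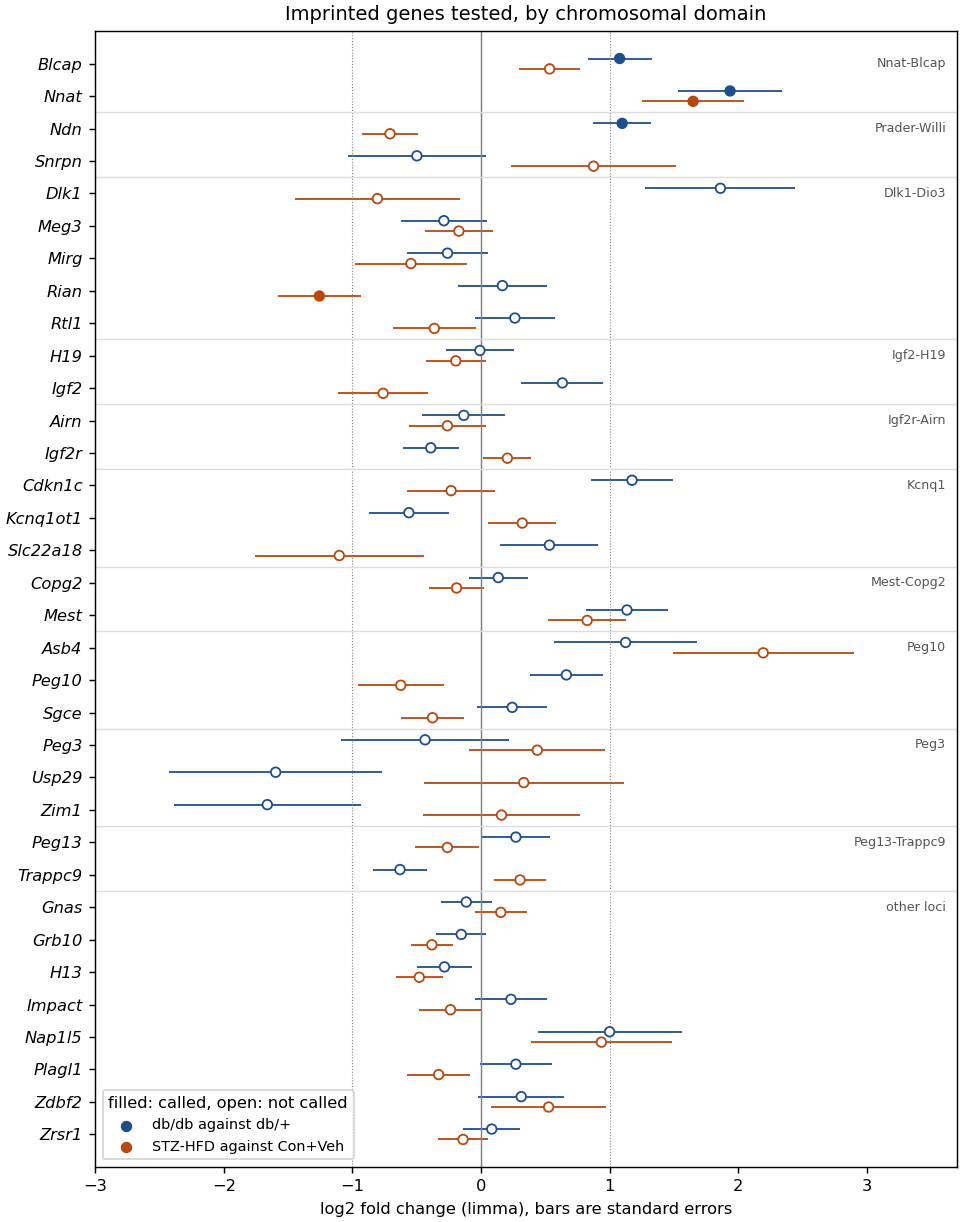
Log2 fold change of the 34 tested imprinted genes in db/db against db/+ (blue) and STZ-HFD against Con+Veh (orange), with standard errors as bars, grouped by chromosomal domain. Filled points passed the test and the fold minimum, and only Nnat is filled in both contrasts.

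By the parental copy usually described as active, 19 of 23 paternally transcribed genes were tested. Among all genes tested, the share with a positive log2 fold change was 47.3% for db/db against db/+ and 47.2% for STZ-HFD against Con+Veh. In db/db 14 of the 19 had a positive log2 fold change and 2 were called higher, and in STZ-HFD 8 were positive and 1 was called higher. Of 17 maternally transcribed genes 15 were tested, with 6 positive in each contrast, 1 called higher in db/db and 1 called lower in STZ-HFD.

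Peg3 (ENSMUSG00000002265, chr7:6703892-6730431, reverse strand), a paternally transcribed zinc-finger gene, had the highest level per length over all libraries, with a mean of 36.2 CPM per kb of exon. By group it led in Con+Veh and STZ-HFD, and H19 lay above it in db/+ (42.7 against 39.3) and db/db (40.1 against 22.9). Peg3 held 159, 552 and 858 CPM in db/+ and 269, 352 and 293 CPM in db/db. In cohort 2 it held 697, 1246, 454 and 125 CPM in Con+Veh and 464, 291, 374 and 618 CPM in STZ-HFD. Controls spanned both the highest and the lowest values, and the diabetic groups lay between them. The log2 fold changes were -0.43 ± 0.66 in db/db (limma adjusted p = 0.746) and 0.44 ± 0.53 in STZ-HFD (limma adjusted p = 0.721). The STZ-HFD direction is that of the weighted fit alone, since the group means were 630.5 CPM in Con+Veh and 436.5 CPM in STZ-HFD, and edgeR and DESeq2 gave -0.53 and -0.52.

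Zim1 (ENSMUSG00000002266, chr7:6671269-6696450, reverse strand), a maternally transcribed zinc-finger gene next to Peg3, held 5.58, 44.7 and 63.8 CPM in db/+ and 7.55, 8.21 and 7.95 CPM in db/db. In cohort 2 it held 56.4, 55.9, 41.6 and 11.1 CPM in Con+Veh and 38.3, 24.4, 24.8 and 45.5 CPM in STZ-HFD. The low controls, db/+ 1 and Con+Veh 4, were the low controls of Peg3. Usp29, which encodes a ubiquitin-specific protease (ENSMUSG00000051527, chr7:6730578-6967219, forward strand), held 1.85, 19.1 and 24.8 CPM in db/+ and 3.75, 4.42 and 2.06 CPM in db/db. It held 15.8, 21.3, 9.21 and 2.50 CPM in Con+Veh and 21.6, 5.09, 6.31 and 14.6 CPM in STZ-HFD, again lowest in the same controls. In db/db the log2 fold changes were -1.66 ± 0.73 for Zim1 (limma adjusted p = 0.201) and -1.60 ± 0.83 for Usp29 (limma adjusted p = 0.279). DESeq2 called Zim1 lower in db/db. Without db/+ 1 both were called lower, and then Nnat, Ndn and Blcap were not.

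The low controls of these 3 genes were also low for 3 markers of notochordal disc cells. The notochordal transcription factor gene T was at 12.1, 245 and 216 CPM in db/+, 40.5, 23.1 and 39.7 CPM in db/db, 181, 306, 159 and 25.96 CPM in Con+Veh, and 150, 62.0, 80.0 and 175 CPM in STZ-HFD. Its low controls were again db/+ 1 and Con+Veh 4. The mean log2(CPM + 0.5) of T, Krt8 and Krt19, the keratin genes of the nucleus pulposus, was set against each of the 34 imprinted genes over the 14 libraries, a relation looked for after the values had been seen. These 3 were taken from a disc list of 10, and others of that list ran the other way in the low controls: Con+Veh 4 was the highest control of its group for Col2a1, Comp, Cnmd and Fmod, and db/+ 1 for Cnmd.

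Since the markers and the relation were chosen after the shared low controls had been noticed, the values are given as a description with no p. Across the 14 libraries, Pearson's r was 0.965 for Zim1, 0.895 for Usp29 and 0.819 for Peg3, and Spearman's rho was 0.833, 0.785 and 0.824. The next highest r was 0.391, for Nap1l5, and the most negative were -0.573 for H19 and -0.541 for Blcap. Without db/+ 1 and db/db 2, the libraries farthest from the median marker level, r was 0.955, 0.911 and 0.858 for Zim1, Usp29 and Peg3. That kept db/db 1, db/db 3 and Con+Veh 4, which were also low for the markers. Among the 9 libraries above the largest gap in marker level, r was 0.827, 0.755 and 0.725. Other genes came near these values there, with -0.782 for Asb4 and 0.679 for Sgce. The likeness was noticed in these same 14 libraries, so the values restate it and are no support for it. The libraries come from 2 cohorts, and the groups are too small for an r within each. The part of notochordal cell content in the levels of the Peg3 domain was not tested.

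**Figure D4:**
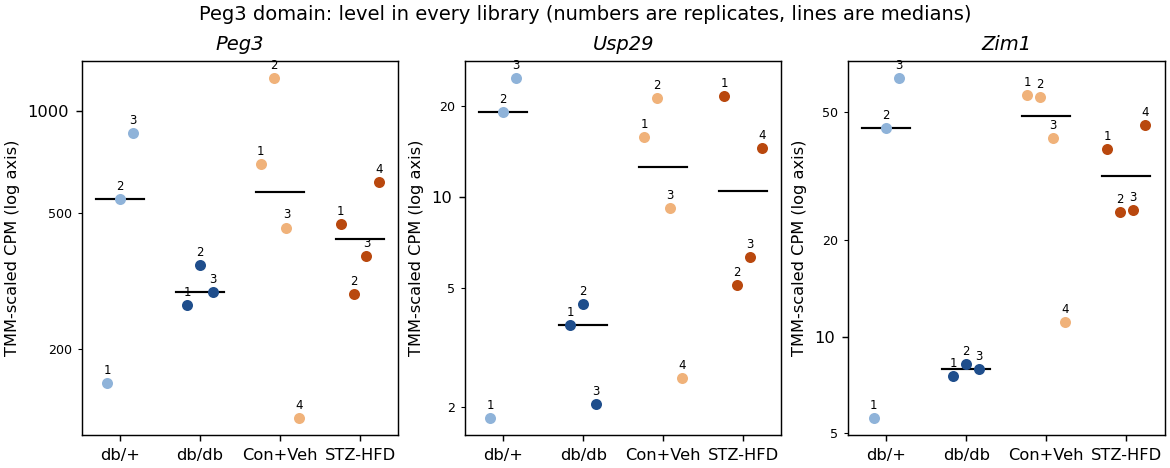
Level of Peg3, Usp29 and Zim1 in each library (TMM-scaled CPM on a log axis), with replicate numbers beside the points and group medians as lines. In each panel db/+ 1 and Con+Veh 4 lie far below the other libraries of their groups.

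H19, a maternally transcribed growth-restraining noncoding RNA, was second in level over all libraries, with a mean of 22.2 CPM per kb, and first in both groups of cohort 1. It held 142, 67.5 and 105 CPM in db/+, 110, 86.3 and 99.2 CPM in db/db, 19.8, 18.97, 19.2 and 25.9 CPM in Con+Veh and 11.6, 21.01, 19.3 and 18.2 CPM in STZ-HFD. All libraries of cohort 1 lay above all of cohort 2, and within each cohort the groups overlapped. The log2 fold changes were -0.01 ± 0.26 in db/db (limma adjusted p = 0.988), positive under other scalings, and -0.20 ± 0.23 in STZ-HFD (limma adjusted p = 0.716). Its neighbour Igf2, the fetal growth factor, had log2 fold changes of 0.63 ± 0.32 in db/db (limma adjusted p = 0.265) and -0.76 ± 0.35 in STZ-HFD (limma adjusted p = 0.261), and 64.5% of its exon bases are shared with other annotated genes.

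Airn, the noncoding RNA that overlaps Igf2r in antisense, came next over all libraries with a mean of 7.50 CPM per kb. By group the order differed, and in db/db Ndn (13.96) and Cdkn1c (12.5) lay above Airn (8.08). In Con+Veh and STZ-HFD, Zrsr1 did so (8.43 and 8.10 against 8.04 and 5.05). Airn held 27.9, 22.6 and 51.5 CPM in db/+, 23.4, 41.1 and 22.7 CPM in db/db, 51.4, 22.4, 20.9 and 20.97 CPM in Con+Veh and 10.1, 24.8, 15.4 and 22.3 CPM in STZ-HFD. The groups overlapped in both cohorts, with 1 high library in each control group. The log2 fold changes were -0.13 ± 0.32 (limma adjusted p = 0.850) and -0.26 ± 0.30 (limma adjusted p = 0.702). Igf2r, the receptor that clears IGF2, gave -0.39 ± 0.22 (limma adjusted p = 0.317) and 0.21 ± 0.19 (limma adjusted p = 0.615). In STZ-HFD the weighted log2 fold changes of 6 of the 34 genes (Igf2r, Dlk1, Peg3, Usp29, Zim1 and Slc22a18), none of them called, ran against their group means, for Igf2r 54.7 ± 13.5 CPM in Con+Veh and 53.5 ± 13.7 CPM in STZ-HFD (SD, n = 4).

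Meg3, a maternally transcribed noncoding RNA of the Dlk1-Dio3 domain, had a mean of 7.06 CPM per kb. It held 136, 145 and 166 CPM in db/+, 158, 133 and 84.2 CPM in db/db, 304, 96.7, 106 and 99.4 CPM in Con+Veh and 34.5, 115, 93.7 and 118 CPM in STZ-HFD. The groups overlapped, with Con+Veh 1 high and STZ-HFD 1 low. The log2 fold changes were -0.29 ± 0.33 (limma adjusted p = 0.657) and -0.17 ± 0.27 (limma adjusted p = 0.790). Of the 5 tested genes of this domain, 1 was called, Rian in STZ-HFD.

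Dlk1, the paternally transcribed inhibitor of fat cell formation, held 0.677, 1.43 and 0.451 CPM in db/+ and 4.80, 1.79 and 2.99 CPM in db/db. These groups did not overlap, and the log2 fold change of 1.86 ± 0.58 did not pass (limma adjusted p = 0.0925). In cohort 2 Dlk1 held 1.33, 0.603, 3.24 and 1.74 CPM in Con+Veh and 4.19, 2.17, 1.02 and 0.773 CPM in STZ-HFD, an overlap.

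Mest, a paternally transcribed gene whose level rises in expanding fat, held 5.70, 4.14 and 4.85 CPM in db/+ and 12.0, 12.4 and 7.90 CPM in db/db. The log2 fold change was 1.14 ± 0.32 in db/db (limma adjusted p = 0.0651) and 0.83 ± 0.30 in STZ-HFD (limma adjusted p = 0.149). Its libraries did not overlap in cohort 1. Copg2, which shares 912 exon bases with Mest, gave 0.13 ± 0.23 and -0.19 ± 0.21.

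Cdkn1c, the maternally transcribed cell cycle inhibitor p57, held 10.6, 7.62 and 15.5 CPM in db/+ and 13.7, 25.9 and 36.6 CPM in db/db, where db/db 1 lay below db/+ 3. The log2 fold change was 1.18 ± 0.32 (limma adjusted p = 0.0587), and -0.23 ± 0.34 in STZ-HFD (limma adjusted p = 0.776). In db/db, Cdkn1c was called by limma with the GC trend removed, and without db/db 1 it was the 1 imprinted gene called. In the same domain Slc22a18, a membrane transporter gene, gave -1.10 ± 0.66 in STZ-HFD (limma adjusted p = 0.404). That weighted value runs against the group means of 0.934 ± 0.517 CPM in Con+Veh and 1.03 ± 0.72 CPM in STZ-HFD (SD, n = 4), and the groups overlapped. The noncoding RNA Kcnq1ot1 gave -0.56 ± 0.31 in db/db (limma adjusted p = 0.315).

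Asb4, a maternally transcribed gene of a ubiquitin ligase adaptor in the Peg10 domain, had the largest log2 fold change of the 34 in STZ-HFD, 2.20 ± 0.70, which did not pass (limma adjusted p = 0.0955). Con+Veh held 3.59, 2.20, 2.49 and 0.109 CPM and STZ-HFD 3.74, 5.23, 7.73 and 4.16 CPM. The groups did not overlap, and the Con+Veh 4 value rests on 2 counts. Peg10, a retrotransposon-derived gene of the placenta, gave 0.66 ± 0.29 in db/db (limma adjusted p = 0.197). Trappc9 gave -0.63 ± 0.21 in db/db (limma adjusted p = 0.109), from 15.0 to 19.04 CPM in db/+ and 9.36 to 14.03 CPM in db/db.

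Among the genes not grouped into a domain here, Nap1l5 had the largest log2 fold change, 1.00 ± 0.56 in db/db (limma adjusted p = 0.316) and 0.94 ± 0.55 in STZ-HFD (limma adjusted p = 0.394). H13 had the lowest p, at -0.48 ± 0.18 in STZ-HFD (limma adjusted p = 0.168). Grb10 gave -0.38 ± 0.17 in STZ-HFD (limma adjusted p = 0.229), from 38.4 to 45.6 CPM in Con+Veh and 20.9 to 37.6 CPM in STZ-HFD. Gnas, the gene of the stimulatory G protein alpha subunit, gave -0.11 ± 0.20 and 0.15 ± 0.20. Its counts depended on the table, at 6001 in all by gene and 45132 estimated by transcript, and transcript Gnas-225 held 61.3% to 86.0% of the latter. More counts by gene than by transcript was the usual order, with a median ratio of 3.67 over 14548 genes, and Peg3, at 305122 and 17540, had a ratio of 17.4.

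Per kb of exon, 22 of the 40 genes had a mean over all libraries above 1 CPM, 14 above 5 and 9 below 0.5. By that mean Nnat, at 2.65 CPM per kb, was 16th. The 6 genes too low to test held 0 to 50 counts per library for Dio3, 0 to 10 for Phlda2, 0 to 42 for both Magel2 and Peg12, 0 to 240 for Mkrn3 and 0 to 26 for Ascl2. In CPM, 5 of the 6 were highest in STZ-HFD 1, the library with the most genes detected, and Phlda2 was highest in STZ-HFD 4.

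**Figure D5:**
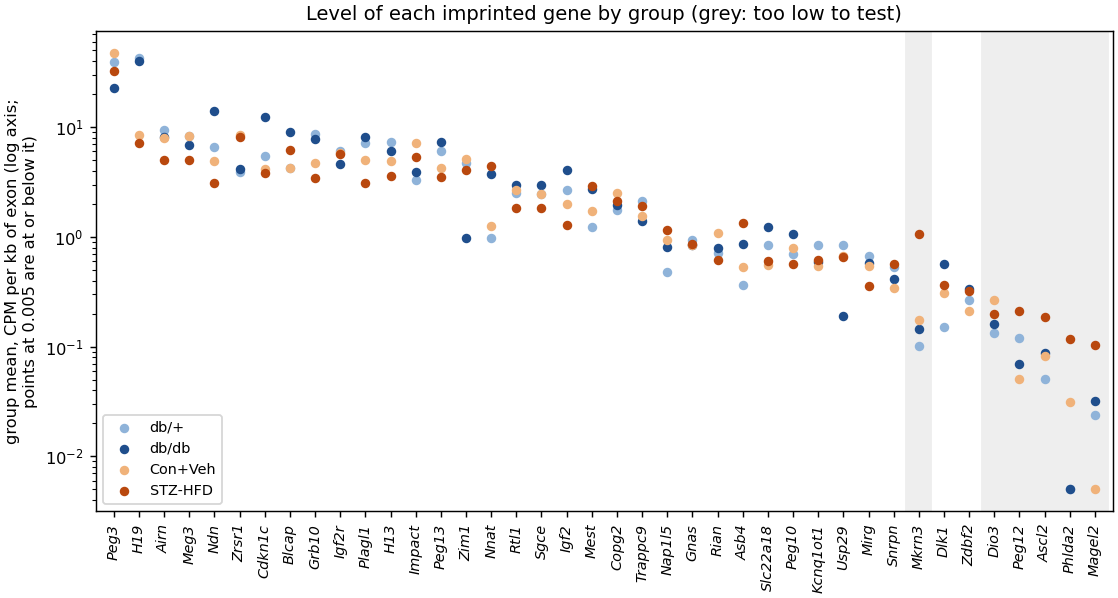
Mean level of each of the 40 imprinted genes in the 4 groups (CPM per kb of exon, log axis), ordered by the mean over all libraries, with genes too low to test on grey. Peg3 and H19 are highest by that mean, and H19 is higher in both groups of cohort 1 than in both groups of cohort 2.

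A list of 38 further imprinted genes or their neighbours held 28 that could be tested, of which 0 were called in db/db and 1, Dcn, which encodes the matrix proteoglycan decorin, was called lower in STZ-HFD and for the difference between the models (limma adjusted p = 0.00458 and 0.0176). Over all genes the shares called were those given above, 1.31% lower in STZ-HFD and 0.816% lower for the difference. Of 14 genes that keep imprints, such as Dnmt1 and Trim28, 12 were tested and 0 were called by limma in any of the 3 contrasts. The edgeR test called 0 of either list. At an unadjusted limma p under 0.05 there were 4 and 5 of the 28 in db/db and STZ-HFD, and 0 and 1 of the 12. The same threshold was met by 21.1% of all genes for the db/db contrast and by 17.9% for the STZ-HFD contrast.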

How the data were processed

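The 40 imprinted genes and the marker lists were chosen with earlier results of these data known. Discs were flash-frozen, RNA was extracted with TRIzol, and 1 to 50 ng was amplified to cDNA before sequencing. The authors aligned reads with STAR to Ensembl release 101 and deposited whole-number gene counts made with featureCounts. The authors also deposited estimated counts per transcript, made with Salmon. Amplification can widen the scatter of low genes. Strand setting and handling of reads with several matches are not given in the sources used here.

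Of 55774 lines, 287 repeated a gene with identical counts and were dropped, leaving 55487 genes. Genes above 1 CPM in at least 3 libraries (16915) were scaled by TMM (edgeR 4.0.16) and fitted with voomWithQualityWeights in limma 3.58.1 (R 4.3.3), with all 14 libraries in 1 fit and a mean for each of the 4 groups. Libraries were grouped by genotype and treatment labels. Each p-value was adjusted by Benjamini-Hochberg over all 16915 genes, and a call needed an adjusted p under 0.05 together with a 2-fold or larger change (1 on the log2 scale). Alternatives included edgeR's quasi-likelihood test, DESeq2 1.42.0, other scalings and filters, marker scores as covariates, transcript totals (estimated counts rounded to whole numbers) and leaving out each library. The scripts were tested on simulated data. Per-library values were given for Nnat, every called gene and the 5 highest per kb, and other genes by the lowest p or largest fold of each domain; Usp29, Zim1, Dlk1, Cdkn1c and some further genes were described after their values were seen. Gene positions are from GENCODE M21. The floor of 3 counts covers counting error only, which depends on depth. Libraries of the same group differed by far more than counting error alone would bring (chi-square per degree of freedom 57.7 to 661).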

Additional observations from a re-analysis of the deposited data

Results flagged for a closer look

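Ndn was called for a different response in the 2 models, which were separate cohorts. The difference of log2 fold changes was -1.81 (STZ-HFD minus db/db, limma adjusted p = 0.0176), by the test of that difference itself. The call was lost by edgeR, without library weights, with either marker score, and without db/+ 2 or Con+Veh 3.

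In 78 gene-by-group sets of 4 libraries, 13 held a library set apart from the other 3 by Dixon's test at its 95% level. Chance alone flags about 1 in 20 such sets, or 3.9 of 78, and the sets are not independent, since the same libraries recur. All 13 were the highest of their group. Con+Veh 1, the library with the lowest weight in the fit, stood apart at 51.4 CPM for Airn, 304.3 CPM for Meg3, 35.6 CPM for Rtl1, 11.6 CPM for Gnas and 1.55 CPM for Mkrn3. Con+Veh 4 did so at 15.2 CPM for Igf2 and 25.9 CPM for H19. STZ-HFD 1, the library with the most genes detected, did so at 1.56 CPM for Dio3, 8.35 CPM for Zdbf2, 1.73 CPM for Magel2, 1.73 CPM for Peg12, 9.87 CPM for Mkrn3 and 1.07 CPM for Ascl2.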

How the results depend on the processing

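The count of imprinted genes called in db/db, 3 as reported, was 0 by edgeR's quasi-likelihood test, 0 without library weights, 0 with the adipocyte score and 0 with the skeletal muscle score as a covariate, and 5 on transcript totals. Leaving out 1 library gave 0 to 4. The count in STZ-HFD, 2 as reported, was 0 by edgeR, without weights, with filterByExpr, with no low-count filter, with that model fitted alone, on transcript totals (which hold no Rian), with either marker score, and with the number of genes detected as a covariate, a choice made after seeing the data. It was 1 by DESeq2 (Nnat), 1 with ribosomal RNA genes removed (Nnat) and 1 without both libraries whose names end in RIP (Rian). Leaving out 1 library gave 0 to 2. Over all genes, 220 were called higher and 221 lower in STZ-HFD in the main fit. They were 6 and 23 by edgeR, and 3 and 16 without weights. With the adipocyte score they were 2 and 2, and with the muscle score 11 and 51. With filterByExpr they were 103 and 114 of 24104 genes, and with no filter 95 and 35 of 46963. On transcript totals they were 30 and 26 of 14693, and without Con+Veh 3 they were 3 and 14. The count for the difference between the models, 1 as reported, was 0 by edgeR, without weights and with either marker score, and 0 to 1 with 1 library left out. Over all genes, 161 were called higher and 138 lower for the difference in the main fit. They were 0 and 5 by edgeR, and 0 and 3 without weights. With the adipocyte score they were 7 and 11, and with the muscle score 7 and 30. The cause of these changes was not tested.

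Replicate numbers are shared between groups but name different mice. With the number as a replicate block, 6 genes were called in db/db (Asb4, Blcap, Dlk1, Mest, Ndn and Nnat), 2 in STZ-HFD and 1 for the difference, and over all genes tested 5.71%, 3.54% and 2.08% were called under the block. Same-numbered libraries did not deviate together, with a mean correlation of -0.09 over 3 pairs in cohort 1 and -0.11 over 4 pairs in cohort 2, so the numbers do not pair the libraries.

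Uncalled values near 0 changed sign. H19 in db/db was 0.0082 with RLE size factors, 0.029 with filterByExpr, 0.11 with no filter, 0.035 with ribosomal genes removed, 0.29 with the GC trend removed, 0.11 with the adipocyte score, and -0.32 to 0.24 with 1 library left out. Airn in db/db was 0.31 with the adipocyte score and -0.44 to 0.16 with 1 library left out, and in STZ-HFD 0.16 with the muscle score. Meg3 was 0.052 in db/db with the muscle score and 0.018 in STZ-HFD with genes detected. Rian in db/db was -0.24 with the GC trend removed, -0.39 with the adipocyte score and -0.21 with the muscle score. Peg3 in db/db was 0.036 with the replicate block and -1.15 to 0.040 with 1 library left out. In STZ-HFD, Peg3 was -0.53 by edgeR, -0.52 by DESeq2, -0.087 without weights and -0.36 to 0.87 with 1 library left out. The Nnat difference between the models was 0.14 without weights, 0.083 with the adipocyte score and -0.70 to 0.31 with 1 library left out. Nnat itself stayed higher in both models in all 29 alternatives for each, as did Ndn and Blcap in db/db. With 3 or 4 libraries a group and Nnat at 25 to 477 counts, small differences were not detectable at this depth and this spread between libraries.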

Other observations

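The transcript assignment of Mest differed between libraries, a pattern noticed after the values were seen and given with no test. In the 3 db/+ libraries, Mest-210 held 93.2%, 84.8% and 86.5% of the estimated Mest counts, whose totals were 59.0, 35.5 and 51.9, and Mest-211 held 0. In the 3 db/db libraries, Mest-211 held 98.4%, 99.1% and 97.1% of totals of 227.3, 232.0 and 139.8, and Mest-210 held 0. In cohort 2 Mest-210 led in Con+Veh 1, 2 and 4 and STZ-HFD 1 and 2, and Mest-211 led in Con+Veh 3 and STZ-HFD 3 and 4, so neither group was uniform. The cause was not tested.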
